A study of Homo sapiens with 6 samples.

Results

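Circadian clock genes were examined in H9 cells, a cutaneous T-cell lymphoma line, as 10 genes taken by their symbols from a table of 61541 genes. They are PER1, PER2, PER3, CRY1, CRY2, NR1D1, NR1D2, CLOCK, DBP and BHLHE40. Bulk RNA-seq covered 3 libraries of cells given the vehicle DMSO and 3 libraries of cells given AZD4573, a selective inhibitor of CDK9, at 50 nM for 4 h. All 6 libraries came from this line, labelled WT, and the labels give no exposure time for DMSO and do not say whether the libraries of a group came from separate cultures. The p-values therefore measure the spread between these libraries, which may be technical.

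The mammalian clock is a transcriptional feedback loop. CLOCK pairs with BMAL1 and binds E-box elements in the promoters of the PER and CRY genes, whose proteins then enter the nucleus and repress CLOCK and BMAL1. In a second loop the REV-ERB receptors, encoded by NR1D1 and NR1D2, repress BMAL1, and output factors such as DBP carry the rhythm to other genes. CDK9 phosphorylates the tail of RNA polymerase II (RNAP2) and releases it from pausing near the start of genes. The comparison asks which transcript levels differ after 4 h with its inhibitor. RNA stability was not measured. For GATA-3 target genes, the paper proposes a long half-life as part of why some transcripts were less affected.

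The E-box CACGTG and its variant CACGTT, often called the E'-box, are the elements through which CLOCK acts, so the stretches that hold them are shown first. RefSeq promoter windows on GRCh38 (250 bases before to 50 after a start) were at hand for 10 of 10 genes, in 14 windows. Either element, read on both strands, occurred in windows of 8 of the 10 genes, all but PER3 and DBP, against 14.5% of 27305 genes with windows. By window, it was 8 of 14 against 12.2% of all 35116. Of 28 other genes of the pathway with windows, 10 held either element. Among the members, CACGTG itself was found for PER1, NR1D2 and BHLHE40 (8.77% of all genes), and CACGTT for PER2, CRY1, CRY2, NR1D1 and CLOCK (6.44% of all genes). These elements share their first 5 letters, and a match describes letters only, not a site in use. In the lines that follow, each run is read 5′ to 3′ on the strand of its gene and capitals mark the element, which reads AACGTG where CACGTT lies on the other strand. Those of NR1D2 and CLOCK lie before a start other than that of the canonical transcript.
PER1 (chr17:8152560-8152589): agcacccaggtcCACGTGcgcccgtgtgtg
PER2 (chr2:238288790-238288819): ggcgcgcgcggtCACGTTttccactatgtg
CRY1 (chr12:107093621-107093650): acacacttcagaAACGTGaggtgccggtgg
CRY2 (chr11:45847275-45847304): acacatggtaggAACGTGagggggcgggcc
NR1D1 (chr17:40100740-40100769): gcgcaagagctcAACGTGccggctgttgga
NR1D2 (chr3:23945954-23945983): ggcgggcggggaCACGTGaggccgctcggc
NR1D2 (chr3:23946004-23946033): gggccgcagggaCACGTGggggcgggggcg
CLOCK (chr4:55546102-55546131): tcaccactcgggCACGTTtggagcagcgcc
BHLHE40 (chr3:4979187-4979209): tccaaCACGTGagactcatgtga

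For the genes with the strongest changes past the test, the promoter is shown from up to 250 bases before the canonical start, leaving out bases that GENCODE annotates as exon. Capitals mark an E-box, an E'-box or the D-box core TTATGTA, the element of DBP and its relatives, which 2.77% of all genes held in a window and which was found for PER3 and NR1D2. NR1D1, PER1 and PER3 had the largest falls, and BHLHE40 and CRY2 were the members that rose.
NR1D1 (chr17:40100590-40100839, minus strand): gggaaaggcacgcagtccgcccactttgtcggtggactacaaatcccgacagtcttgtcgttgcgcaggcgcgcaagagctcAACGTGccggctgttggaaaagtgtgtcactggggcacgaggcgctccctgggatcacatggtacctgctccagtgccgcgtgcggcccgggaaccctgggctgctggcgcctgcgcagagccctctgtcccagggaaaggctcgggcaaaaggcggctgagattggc
PER1 (chr17:8152436-8152654, minus strand): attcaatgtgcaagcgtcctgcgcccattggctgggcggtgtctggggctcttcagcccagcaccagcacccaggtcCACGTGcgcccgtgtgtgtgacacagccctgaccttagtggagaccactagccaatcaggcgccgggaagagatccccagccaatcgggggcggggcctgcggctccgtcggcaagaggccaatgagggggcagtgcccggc
PER3 (chr1:7784041-7784290, plus strand): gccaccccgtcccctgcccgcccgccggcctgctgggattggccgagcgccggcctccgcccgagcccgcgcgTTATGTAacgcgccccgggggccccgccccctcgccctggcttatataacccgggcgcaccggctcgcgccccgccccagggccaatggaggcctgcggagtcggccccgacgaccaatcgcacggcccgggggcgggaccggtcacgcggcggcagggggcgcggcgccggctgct
BHLHE40 (chr3:4979187-4979436, plus strand): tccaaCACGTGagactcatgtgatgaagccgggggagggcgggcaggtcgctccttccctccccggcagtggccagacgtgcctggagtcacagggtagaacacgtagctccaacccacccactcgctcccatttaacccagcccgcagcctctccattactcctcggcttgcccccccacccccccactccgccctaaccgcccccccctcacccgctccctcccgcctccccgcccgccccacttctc
CRY2 (chr11:45847282-45847405, plus strand): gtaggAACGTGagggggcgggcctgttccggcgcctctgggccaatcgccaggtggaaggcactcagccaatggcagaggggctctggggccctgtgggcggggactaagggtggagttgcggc
The element lay 168 bases before the start in NR1D1, 173 in PER1, 188 in CRY2 and 245 in BHLHE40, and the D-box core lay 177 bases before the start in PER3. The core of the ROR element, TAGGTCA, was found among members for CRY2 alone (2.29% of all genes), and the core of the cAMP response element, TGACGTC, for NR1D2 alone (4.2% of all genes). Genes that fell and genes that rose upon treatment thus both carried an E-box or E'-box.

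Total counts ranged from 70367303 to 76571157 with DMSO and from 52101868 to 63795185 with AZD4573. Values are CPM, which puts counts on the same library size after TMM normalization, and the groups were compared with edgeR (quasi-likelihood F-test, p-values adjusted by Benjamini-Hochberg over the 17678 genes that passed a filter on low counts). SE stands for the standard error of a log2 fold change. A gene was said to rise or fall at an adjusted p under 0.05. In bulk libraries a smaller number of cells and less RNA per cell cannot be told apart, and the mRNAs of the mitochondrial genome went from between 3.04% and 3.22% of counts with DMSO to between 4.67% and 4.98% with AZD4573. With libraries scaled to these 13 mRNAs instead, the all-gene median of the log2 fold change was -0.71 in place of 0.03. Of 13 T-cell markers, 11 stood at 1 CPM or more in each library and CD2 and CD7 stayed below it, and their sum went from 1752 to 1797 CPM with DMSO to 2248 to 2289 CPM with AZD4573. The sum of 5 B-cell markers went from 61.0 to 67.0 CPM with DMSO to 92.5 to 103 CPM with AZD4573, with MS4A1 and PAX5 below 1 CPM in each library. The 5 myeloid markers summed to between 0.268 and 0.492 CPM with DMSO and between 1.15 and 2.08 CPM with AZD4573, and the 4 erythroid markers, with HBB at 0, to at most 0.0526 CPM. The 4 epithelial markers summed to between 154 and 173 CPM with DMSO and between 137 and 142 CPM with AZD4573, and the 4 fibroblast markers to between 5.01 and 7.45 CPM and between 3.62 and 4.36 CPM. The part of these shifts in the clock results was not tested.

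All 10 members had at least 10 counts in every library and were tested. Upon AZD4573 treatment 7 fell and 2 rose, where 37.4% of all genes tested fell and 37.3% rose. The 7 that fell were PER1, PER2, PER3, CRY1, NR1D1, NR1D2 and DBP. CRY2 and BHLHE40 rose, and CLOCK did not pass the test. With a fold of at least 1.5 added, the same 7 stayed and neither rise did, against 23.7% lower and 22.7% higher of all genes. The study used this fold too, but with DESeq2 and a p-value under 0.05. At a fold of at least 2, 4 members fell and 0 rose by edgeR, against 13.9% lower and 15% higher of all genes. The AZD4573 libraries all lay below the DMSO libraries for 7 members and above them for 2, where the groups were separated in this way for 38.7% and 39% of all genes. The median log2 fold change of the members was -0.93, against 0.03 over all genes. Scaled to the mitochondrial mRNAs, all 10 were lower (67.2% of all genes, with 12.1% higher), so that CRY2, BHLHE40 and CLOCK changed direction. Relative to the median of all genes, 7 members were below it and 3 above it under either scaling. Rescaling libraries shifts all genes by nearly the same amount, so this match was fixed in advance.

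**Figure D1:**
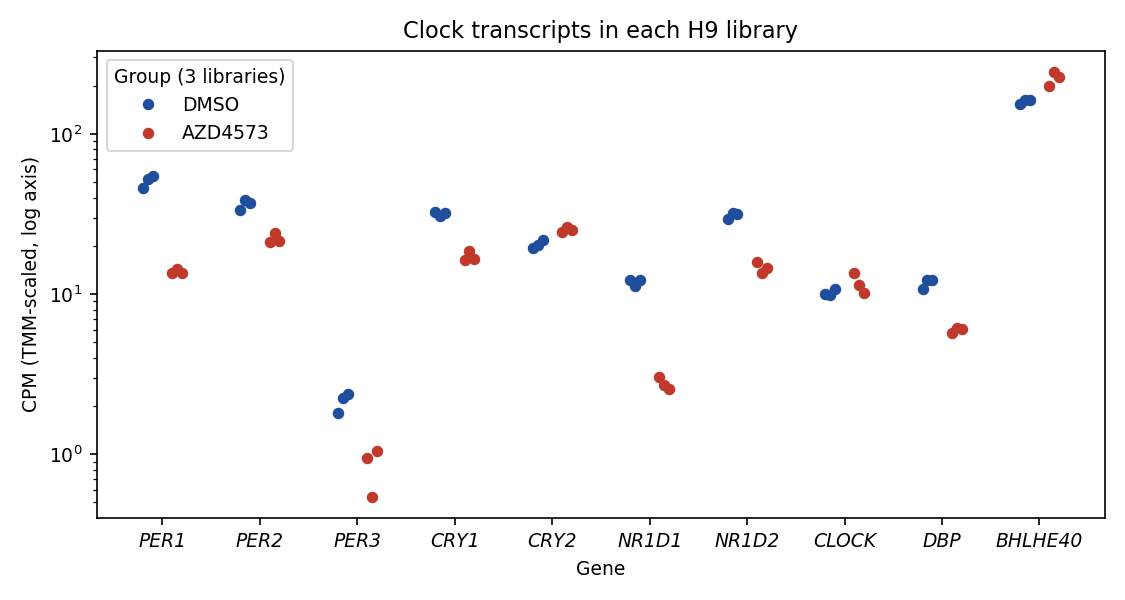
CPM (TMM-scaled, log axis) of the 10 clock genes in each of the 6 H9 libraries, with DMSO in blue and AZD4573 in red. The groups are apart for every gene but CLOCK, with AZD4573 below DMSO for 7 genes and above it for CRY2 and BHLHE40.

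The PER proteins form the repressive complex of the clock together with the CRY proteins. PER1 (ENSG00000179094, chromosome 17 of GRCh38 from 8140472 to 8156506, 23 exons in the canonical transcript) stood at 45.7, 52.6 and 54.6 CPM in the DMSO libraries and at 13.5, 14.3 and 13.6 CPM in the AZD4573 libraries. The treated libraries lay close together and far below each DMSO library. PER1 fell by 1.88 on the log2 scale (SE 0.0721, adjusted p = 1.1e-10 by edgeR), from 51.0 ± 4.69 to 13.8 ± 0.425 CPM (SD, n = 3). Only 3.57% of all genes had a lower log2 fold change.

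PER2 (ENSG00000132326, chromosome 2 from 238244044 to 238290102) stood at 33.3, 38.8 and 37.2 CPM with DMSO and at 21.3, 24.1 and 21.5 CPM with AZD4573. The groups did not overlap, but the step was smaller than for PER1. It fell by 0.71 on the log2 scale (SE 0.0708, adjusted p = 7.6e-07 by edgeR). PER3 (ENSG00000049246, chromosome 1 from 7784291 to 7845177) was the lowest member, with 141, 165 and 174 counts with DMSO and 48, 31 and 64 counts with AZD4573. In CPM these were 1.80, 2.25 and 2.36 against 0.943, 0.544 and 1.05, and AZD4573 replicate 2 was the lowest library. PER3 fell by 1.33 (SE 0.233, adjusted p = 0.00015 by edgeR), and the fall ranged from -1.54 to -1.10 with each library left out in turn, the smallest without AZD4573 replicate 2. Its pseudogene PER3P1 had no counts, and UTS2, which shares 868 exon bases with PER3, had at most 11 counts in a library.

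The CRY genes encode the partners of PER that directly inhibit CLOCK and BMAL1, and they moved apart. CRY1 (ENSG00000008405, chromosome 12 from 106991364 to 107093549) stood at 32.4, 30.6 and 32.2 CPM with DMSO and at 16.3, 18.5 and 16.6 CPM with AZD4573. It fell by 0.89 on the log2 scale (SE 0.0642, adjusted p = 3.0e-08 by edgeR), with groups well apart. CRY2 (ENSG00000121671, chromosome 11 from 45847118 to 45883248) stood at 19.4, 20.2 and 21.6 CPM with DMSO and at 24.3, 26.4 and 25.1 CPM with AZD4573. Each treated library was above each DMSO library. Its log2 fold change was 0.31 (SE 0.0633, adjusted p = 0.00059 by edgeR), a fold of 1.24 that turned to -0.43 when scaled to the mitochondrial mRNAs. Its raw counts hardly differed, from 1482 to 1594 with DMSO and from 1237 to 1534 with AZD4573, so that its direction rests on the scaling.

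NR1D1 encodes REV-ERBα and NR1D2 REV-ERBβ, nuclear receptors that repress BMAL1. NR1D1 (ENSG00000126368, chromosome 17 from 40092793 to 40100589) had the largest fall of the 10, from 12.2, 11.2 and 12.3 CPM with DMSO to 3.03, 2.7 and 2.54 CPM with AZD4573. The treated libraries held 154, 154 and 155 counts against 818 to 957 with DMSO. It fell by 2.11 on the log2 scale (SE 0.101, adjusted p = 6.2e-10 by edgeR), a fold of 4.33, and 2.42% of all genes had a lower log2 fold change. Its exons share 473 bases (18% of its exon bases) with THRA, an antisense neighbour. Reads within those bases cannot be told apart by strand in unstranded counts. THRA stood at 13.2 CPM with DMSO and 13.6 CPM with AZD4573 (log2 fold change 0.04, adjusted p = 0.59 by edgeR).

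NR1D2 (ENSG00000174738, chromosome 3 from 23945286 to 23980617) stood at 29.5, 32.0 and 31.5 CPM with DMSO and at 15.9, 13.5 and 14.5 CPM with AZD4573. It fell by 1.08 on the log2 scale (SE 0.0700, adjusted p = 9.7e-09 by edgeR), without overlap of the groups. DBP (ENSG00000105516, chromosome 19 from 48630030 to 48637379), a PAR bZIP factor that CLOCK drives and that binds D-boxes, stood at 10.7, 12.2 and 12.2 CPM with DMSO and at 5.68, 6.11 and 6.01 CPM with AZD4573. It fell by 0.98 on the log2 scale (SE 0.0885, adjusted p = 2.8e-07 by edgeR). DBP shares 661 exon bases with SPHK2 on the opposite strand, which itself went from 23.6 to 10.4 CPM, and the part of such reads in the fall of DBP was not tested.

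CLOCK (ENSG00000134852, chromosome 4 from 55427903 to 55546909) encodes the activating partner of BMAL1. It stood at 10.0, 9.82 and 10.7 CPM with DMSO and at 13.5, 11.4 and 10.1 CPM with AZD4573. The groups overlapped, since AZD4573 replicate 3 lay within the DMSO libraries and replicate 1 was the highest of all. The log2 fold change was 0.20 (SE 0.0994, adjusted p = 0.091 by edgeR). Without AZD4573 replicate 3 it was 0.29 and passed (adjusted p = 0.019 by edgeR). Without AZD4573 replicate 1 it was 0.078 (adjusted p = 0.43 by edgeR). Scaled to the mitochondrial mRNAs it was -0.54 (adjusted p = 0.00040 by edgeR).

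BHLHE40 (ENSG00000134107, chromosome 3 from 4979437 to 4985323) encodes DEC1, a repressor that competes for E-boxes and is known in T cells for its part in cytokine production. It was the most abundant member, at 154, 163 and 163 CPM with DMSO and 200, 244 and 226 CPM with AZD4573. The lowest treated library was above the highest DMSO library. Its log2 fold change was 0.48 (SE 0.0609, adjusted p = 7.5e-06 by edgeR), a fold of 1.40 that turned to -0.26 when scaled to the mitochondrial mRNAs. BHLHE40 shares 451 exon bases with BHLHE40-AS1 on the opposite strand, which went from 10.6 to 7.57 CPM.

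**Figure D2:**
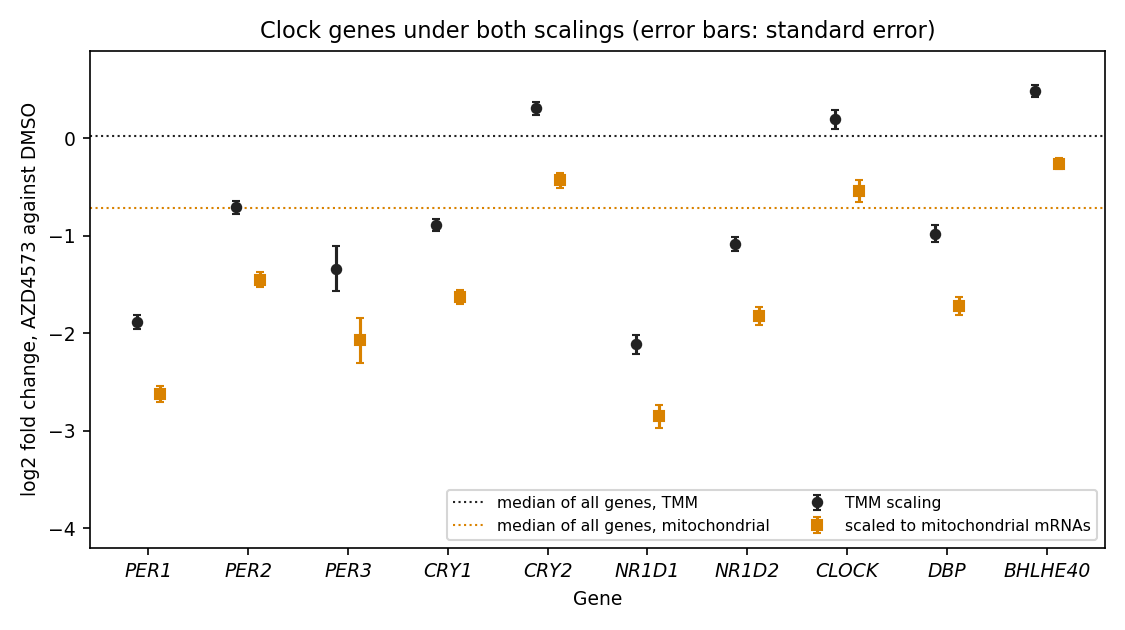
Log2 fold changes of the 10 clock genes (AZD4573 against DMSO, 3 libraries each) with standard errors, under TMM scaling (circles) and with libraries scaled to the 13 mitochondrial mRNAs (squares). Dotted lines give the median of all genes, 0.03 and -0.71. The genes keep their place relative to these lines by construction, since rescaling shifts all genes by nearly the same amount.

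Changes relative to the median of all genes differed little between the scalings. This was fixed in advance, since rescaling libraries shifts all genes by nearly the same amount. Under TMM the relative changes were -2.14 for NR1D1, -1.91 for PER1 and -1.36 for PER3, and under mitochondrial scaling -2.14, -1.91 and -1.36. For BHLHE40 they were 0.46 and 0.45, for CRY2 0.28 and 0.28, and for CLOCK 0.17 and 0.17. CRY1 at -0.91 and PER2 at -0.73 by TMM lay closer to the bulk of all genes.

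**Figure D3:**
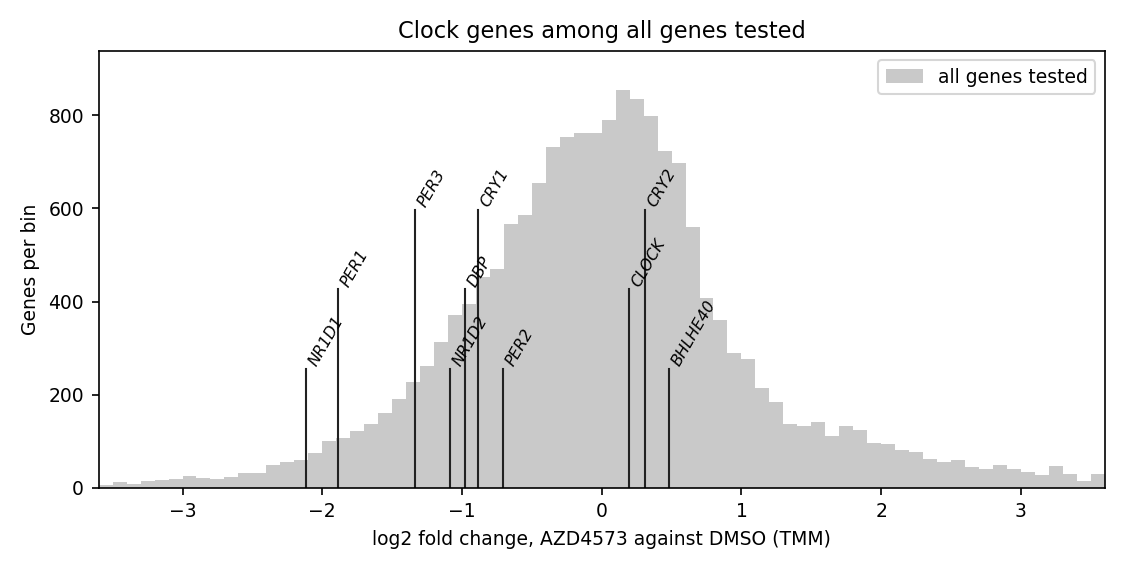
Histogram of the log2 fold changes of all 17678 genes tested (AZD4573 against DMSO, TMM, the far tails not drawn), with lines at the 10 clock genes whose heights only separate the names. NR1D1 at -2.11 and PER1 at -1.88 lie in the lower tail, and CLOCK, CRY2 and BHLHE40 lie near the centre.

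Levels between genes were compared as mean CPM per kilobase of the canonical transcript. With DMSO, BHLHE40 stood highest at 50.7 ± 1.67 (SD, n = 3), followed by PER1 at 10.9 ± 1.00 and CRY1 at 10.6 ± 0.324, which did not differ beyond their spread. NR1D2 (5.93 ± 0.255), PER2 (5.71 ± 0.439) and DBP (5.39 ± 0.402) came next, each within the spread of its neighbour. CRY2 (4.94 ± 0.275) and NR1D1 (4.52 ± 0.241) followed, each below the gene before it by more than either SD. CLOCK (0.972 ± 0.0431) and PER3 (0.336 ± 0.0471) were lowest. With AZD4573, CRY2 stood second at 6.12 ± 0.253, within the spread of CRY1 at 5.75 ± 0.401. PER1, at 2.95 ± 0.0909, came below PER2 at 3.49 ± 0.242 and within the spread of NR1D2 (2.80 ± 0.233), and NR1D1 (1.05 ± 0.0942) stood within the spread of CLOCK (1.12 ± 0.162).

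Ratios between clock transcripts within a library do not depend on how libraries are scaled, and 6 were formed from counts with 0.5 added. They are not corrected for transcript length, so a ratio of 1 does not mean equal levels. The ratio of PER1 to PER2 was 1.37, 1.36 and 1.47 with DMSO and 0.635, 0.593 and 0.631 with AZD4573, so that PER2 had more counts than PER1 in each treated library and fewer in each DMSO library. The ratio of CRY1 to CRY2 was 1.67, 1.51 and 1.49 with DMSO and 0.673, 0.703 and 0.661 with AZD4573, and it turned in the same way. The ratio of NR1D1 to NR1D2 was 0.414, 0.349 and 0.392 with DMSO and 0.191, 0.201 and 0.175 with AZD4573. These ratios changed by -1.17, -1.20 and -1.02 on the log2 scale.

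The ratio of CLOCK to its partner BMAL1 was 1.04, 0.877 and 1.05 with DMSO and 4.39, 5.55 and 4.77 with AZD4573, a change of 2.3 on the log2 scale. The canonical transcript of CLOCK has 10.47 kilobases and that of BMAL1 2.787. In mean CPM per kilobase, CLOCK stood at 0.972 and BMAL1 at 3.70 with DMSO. With AZD4573 these were 1.12 ± 0.162 and 0.865 ± 0.204 (SD, n = 3). The count ratio of PER1 to CLOCK, a repressor against the activator, was 4.55, 5.36 and 5.11 with DMSO and 1.00, 1.25 and 1.34 with AZD4573. The ratio of PER3 to PER2 was 0.0541, 0.0583 and 0.0637 with DMSO and 0.0448, 0.0230 and 0.0490 with AZD4573, and its change of -0.66 became -0.32 without AZD4573 replicate 2. The groups did not overlap for any of the 6 ratios. In an exact two-sided permutation test each gave p = 0.1 (0.1 after Benjamini-Hochberg adjustment over the 6), the smallest that 3 against 3 libraries allow, so that none could pass 0.05.

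**Figure D4:**
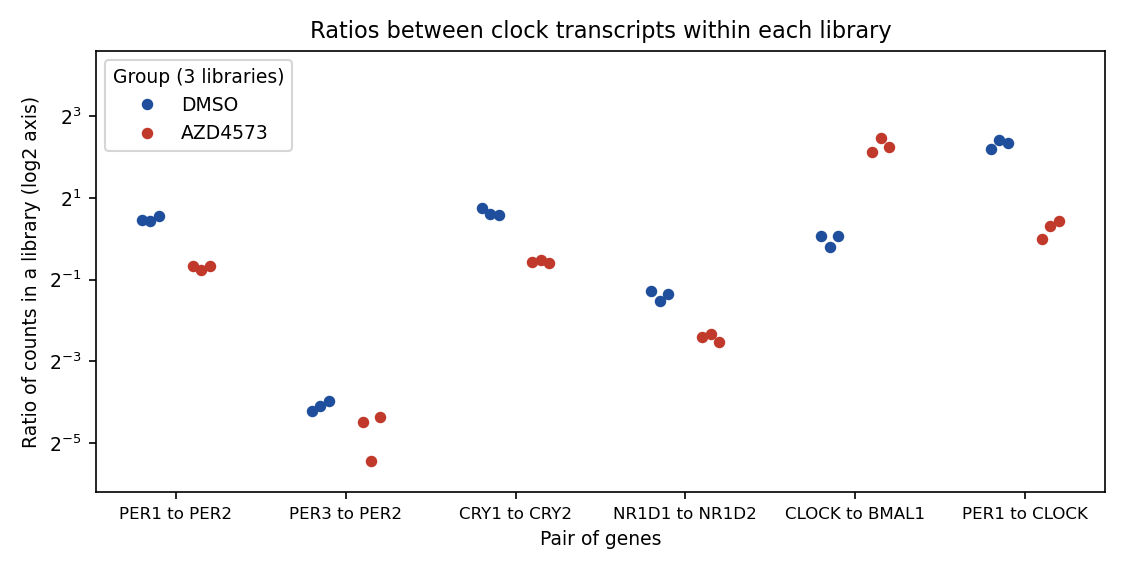
Ratio of the counts of 2 clock genes within each library (log2 axis, not corrected for transcript length), with DMSO in blue and AZD4573 in red, 3 libraries each. The ratios PER1 to PER2 and CRY1 to CRY2 pass from above 1 to below 1, and CLOCK to BMAL1 goes from about 1 to between 4.39 and 5.55.

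The other genes of the pathway were taken as a list of 34, of which 30 were tested. Of these, 16 fell and 4 rose and 10 did not pass, with a median log2 fold change of -0.30, beside 37.4% lower, 37.3% higher and a median of 0.03 over all genes. With a fold of at least 1.5, 9 fell and 1 rose (23.7% and 22.7% of all genes), and scaled to the mitochondrial mRNAs 29 were lower and 1 higher (67.2% and 12.1% of all genes). BHLHE41, PASD1 and FBXL21P had no counts. This allows up to 0.0392 CPM in the largest library and 0.0576 CPM in the smallest (3 counts, counting error only).

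BMAL1, listed under its older symbol ARNTL and the partner of CLOCK, stood at 9.62, 11.2 and 10.1 CPM with DMSO and at 3.07, 2.05 and 2.11 CPM with AZD4573. It fell by 2.11 on the log2 scale (SE 0.139, adjusted p = 1.2e-08 by edgeR), about as far as NR1D1. Its paralog BMAL2 fell by 0.52, and NPAS2, which can stand in for CLOCK, had a log2 fold change of 0.05 (adjusted p = 0.56 by edgeR) that turned to -0.03 without AZD4573 replicate 1 and to -0.05 with library size alone. Of the ROR receptors, which activate BMAL1, RORA fell by 0.31 (adjusted p = 0.010 by edgeR, and 0.050 without AZD4573 replicate 3), and RORB had a log2 fold change of -0.04 (adjusted p = 0.62).

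NFIL3, which represses D-box genes and so opposes DBP, had the largest fall among the clock genes tested. It stood at 6.62, 5.91 and 6.60 CPM with DMSO and at 0.472, 0.298 and 0.492 CPM with AZD4573, and fell by 3.92 on the log2 scale (SE 0.174, adjusted p = 3.5e-10 by edgeR). CIPC, which inhibits CLOCK, fell by 0.89. TEF and HLF, the relatives of DBP, had log2 fold changes of 0.11 and 0.14 (adjusted p = 0.34 and 0.27 by edgeR), which turned to -0.63 and -0.59 under mitochondrial scaling.

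Among genes that set the stability of clock proteins, BTRC, the ubiquitin ligase subunit that targets PER proteins, fell by 0.93 on the log2 scale, while SIAH2 rose by 0.38, and this rise turned to -0.36 under mitochondrial scaling. Of the kinases that act on PER proteins, CSNK1D fell by 0.56 and CSNK1E, which shares exons with the read-through gene TPTEP2-CSNK1E, by 0.28, and GSK3B had a log2 fold change of -0.05 (adjusted p = 0.28 by edgeR). Of the genes listed here as PER complex partners, TIPIN fell by 1.40, DDX5 by 0.59 and SFPQ by 0.49. Their place in that complex was not tested. TIPIN shares 21.1% of its exon bases with the pseudogene RPL9P25.

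SIRT1, a deacetylase that acts on BMAL1 and PER2, fell by 2.44 on the log2 scale (SE 0.0584, adjusted p = 7.2e-12 by edgeR), from 60.7 ± 2.41 to 11.2 ± 0.343 CPM (SD, n = 3). NAMPT, which makes the NAD that SIRT1 uses, fell by 0.57, and NCOR1, a corepressor of the REV-ERB receptors, by 0.31. NOCT, a rhythmic gene first described as a deadenylase, had a log2 fold change of -0.22 (adjusted p = 0.051 by edgeR), and passed with DESeq2 (adjusted p = 0.048). The 4 genes that rose were CIART (1.86), SIAH2 (0.38), NONO (0.22) and TIMELESS (0.10), of which CIART, NONO and TIMELESS were named after their values were seen. Under mitochondrial scaling NONO turned to -0.52 and TIMELESS to -0.64, and TIMELESS did not pass when any one library was left out. CIART, a repressor of CLOCK and BMAL1, was low, at 0.191, 0.273 and 0.217 CPM with DMSO and 0.648, 1.09 and 0.737 CPM with AZD4573.

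**Figure D5:**
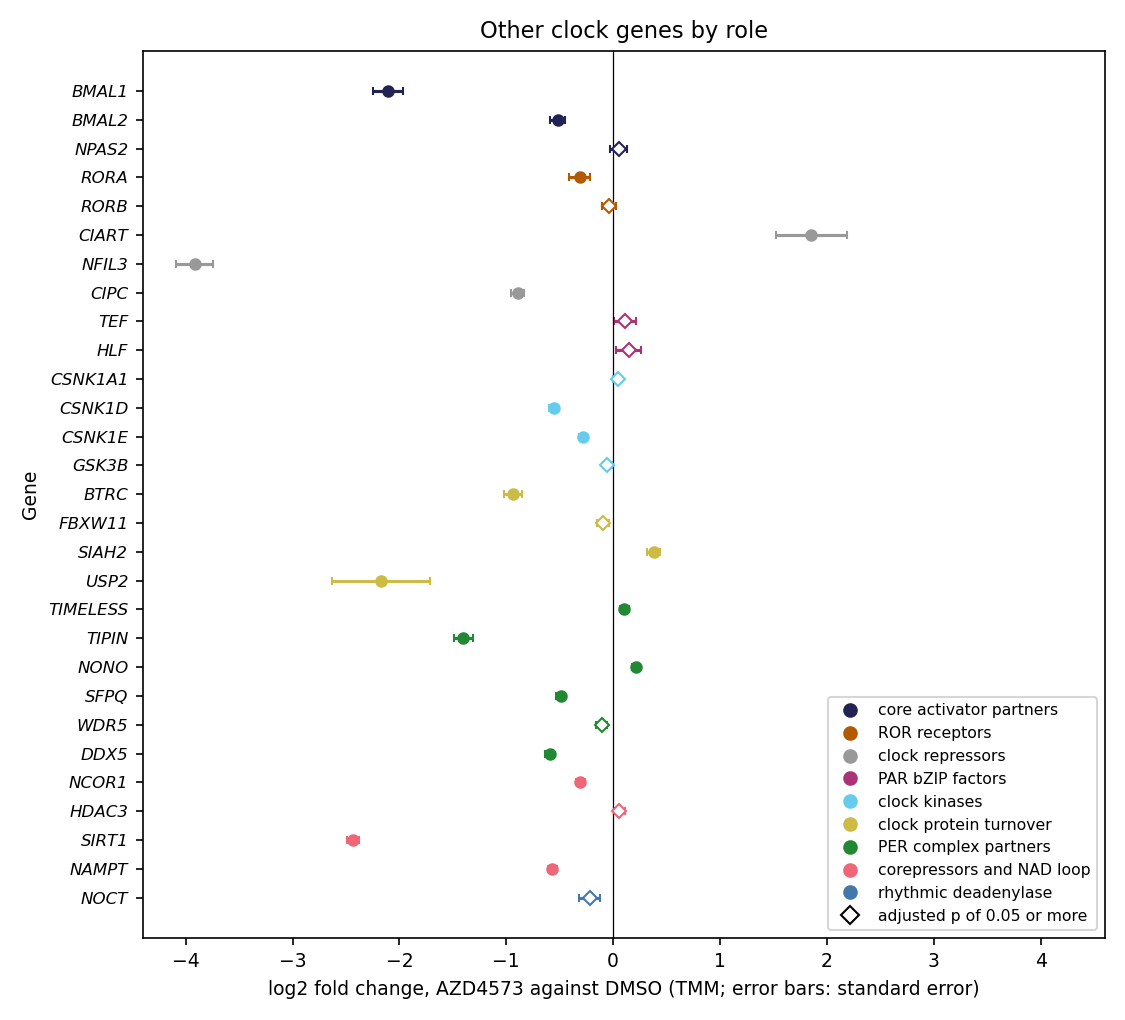
Log2 fold changes (AZD4573 against DMSO, TMM, 3 libraries each) of 29 of the 30 other clock genes tested, coloured by role, with standard errors. Open diamonds mark the 10 genes that did not pass the test, and NFIL3 at -3.92 and CIART at 1.86 are the extremes.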

How the data were processed

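Bulk RNA-seq of H9 cells (3 DMSO and 3 AZD4573 libraries, mapped by their labels) was used. The authors trimmed reads with Cutadapt 2.3, aligned them to GRCh38 with STAR 2.7.8a and deposited expected counts per gene from RSEM 1.3.3 at default parameters, which ignore strand. No normalization was applied to the deposited values, which are whole. Poly(A) selection is given in the labels and rRNA depletion in the supplemental methods. Rows for Cre and fluorescent reporters, all at 0, were left out. Libraries of a group differed beyond sampling noise (chi-square per degree of freedom 5.29 to 19.4).

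Counts were filtered (edgeR, minimum count 10), TMM-normalized and tested with the edgeR quasi-likelihood F-test (R 4.3.3, edgeR 4.0.16) without a replicate block, and the procedure was tested on simulated data. DESeq2 1.42.0 was an alternative. Standard errors were derived from the F statistic. Gene positions and transcript lengths came from GENCODE release 44 and promoters from RefSeq, both on GRCh38. The members and lists were chosen with earlier results of these data known. Text names all 10 members, up to 3 other genes per role with the largest change among those of at least 1 CPM, and BMAL1, NPAS2, RORA, BHLHE41, NFIL3, TEF and HLF in any case. Some genes of the lists count in the totals and are not reported by name here. Intervals and limits cover counting error only.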

Additional observations from a re-analysis of the deposited data

How the results depend on the processing

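RLE factors, library size only, no filter, at least 10 counts in every library, DESeq2, a replicate block and each library left out in turn left 7 clock members lower, and 2 higher except where CLOCK passed as well (at least 10 counts in every library, adjusted p = 0.047, and without AZD4573 replicate 3, 0.019). At a fold of at least 1.5, 0 members were higher and 9 other clock genes lower and 1 higher, and at a fold of at least 2, 4 members were lower and 0 higher and 6 other genes lower and 1 higher (13.9% of all genes lower and 15% higher), which are stricter rules by construction. Scaled to the mitochondrial mRNAs, 10 members were lower and 0 higher and 29 other genes lower and 1 higher. There the log2 fold change reversed for CRY2 (-0.43), CLOCK (-0.54), BHLHE40 (-0.26), NPAS2 (-0.68), TEF (-0.63), HLF (-0.59) and SIAH2 (-0.36), which follows the shift of all genes. NPAS2 also reversed to -0.051 with library size only. It ranged from -0.030 to 0.10 with each library left out, the lowest without AZD4573 replicate 1. CLOCK ranged from 0.078 to 0.29 with each library left out, the lowest also without AZD4573 replicate 1. Of 416 values of the 32 genes tested that the naming rule took, 395 kept their direction and call, 1 was weaker, 11 stronger and 9 reversed. NOCT accounts for 6 of the values that were stronger. For the settings other than mitochondrial scaling the cause was not tested. Beside 16 in the report, 20 other genes were lower with library size only, 18 with no filter, 17 with DESeq2, 15 with at least 10 counts in every library and 16 to 17 with each library left out. Those higher were 3 with library size only, with no filter and with each library left out. The share of all genes that fell or rose is not given here for these settings or for the replicate block. The all-gene median of the log2 fold change was -0.08 with library size only and 0.11 with no filter, against 0.03 in the report.

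In the labels, libraries with the same replicate number share only that number. Their departures from the mean of their group had correlations of -0.00769, 0.0894 and -0.0501. With 3 libraries per group these values cannot show whether such libraries shared a culture. With the replicate block, 7 members were lower and 2 higher, 17 other genes were lower and 3 higher, and NOCT passed (-0.23, adjusted p = 0.029). Ratios kept their direction in 48 of 48 alternatives, and with a block the exact p was 0.25, the smallest that 3 pairs allow.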
